A study of Mus musculus with 3 samples.

Results

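The cells described here are dermal fibroblasts of mouse skin with at least 2 of the genes Coch, Dkk2, Fmod and Kera, nearly always Coch among them. They were chosen by a rule on measured counts: a fibroblast was a member when at least 2 of these 4 genes had a unique molecular identifier (UMI, a count of 1 captured RNA molecule) and when it had more of these 4 genes than of any of 6 other sets of 4 fibroblast genes. The rule found 127 members among 6498 gated fibroblasts and 23292 kept cells, 65 in the control library and 62 in the metformin library. The 6 other sets, named A, B, D, E, F and G, hold Pi16, Dpep1, Tnfaip6 and Cpxm1 (A), Cyp2f2, Cpz, Ccl11 and Osr2 (B), Stc1, Grem1, Igfbp2 and Mme (D), Plac8, Sfrp4, Myoc and Smpd3 (E), Col11a1, Lrrc15, Tnmd and Acan (F), and Crabp1, Notum, Rspo3 and Corin (G). Levels of these 28 genes in members were therefore in part set by the choice of cells, and every gene comes from the cells that were chosen, so all values of members beside other fibroblasts are a description with no test.

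The study made single-cell RNA libraries from the skin of C57BL/6 mice at 7 weeks after birth, 1 library for each of the agents control, Shi-Bi-Man and metformin (a biguanide drug). The labels give no dose, no time under the agent and no number of animals, and their extraction text names a cynomolgus monkey project, whereas the gene identifiers of the libraries are those of mouse. The control and metformin libraries were used, and the expression of the Shi-Bi-Man library was not analysed here. With 1 library for each agent a difference between control and metformin has no replicate check, so no p-value was computed, and all intervals are 95% intervals that cover counting error only.

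Fibroblasts of the dermis lay down collagen, elastic fibres and the small proteoglycans that set the spacing of collagen fibrils, and they differ with depth in the skin and with distance from the hair follicle. Coch encodes cochlin, a secreted protein best known from the extracellular matrix of the inner ear. Dkk2 encodes a secreted modulator of Wnt signalling that binds the LRP5 and LRP6 co-receptors. Fmod and Kera encode fibromodulin and keratocan, both small leucine-rich proteoglycans, of which the first binds collagen fibrils in tendon and other connective tissue and the latter is abundant in the cornea.

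In the GRCm38 annotation Coch lies on the plus strand at chr12:51593341-51605771, Dkk2 on the plus strand at chr3:132085292-132180304, Fmod on the plus strand at chr1:134037254-134048277 and Kera on the plus strand at chr10:97606879-97613692. The stretches around the start sites of Coch, Dkk2 and Fmod are shown because these genes define the cells. Kera is not shown, because the RefSeq start site lies inside the gene as annotated above. They are RefSeq sequences of build GRCm38.p6, from 250 bases before to 50 bases after each start site, 5′ to 3′ on the strand of the gene. Capitals mark the motif TATAAA or the E-box CATCTG, which were searched on both strands and do not overlap each other here.
Coch chr12:51593091-51593390, + strand: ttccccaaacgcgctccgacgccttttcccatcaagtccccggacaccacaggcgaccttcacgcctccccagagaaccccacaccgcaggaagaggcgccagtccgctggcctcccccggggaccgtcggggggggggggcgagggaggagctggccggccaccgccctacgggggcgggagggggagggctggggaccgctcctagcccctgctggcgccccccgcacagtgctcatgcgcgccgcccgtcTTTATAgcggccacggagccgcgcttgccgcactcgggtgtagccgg
Dkk2 chr3:132085042-132085341, + strand: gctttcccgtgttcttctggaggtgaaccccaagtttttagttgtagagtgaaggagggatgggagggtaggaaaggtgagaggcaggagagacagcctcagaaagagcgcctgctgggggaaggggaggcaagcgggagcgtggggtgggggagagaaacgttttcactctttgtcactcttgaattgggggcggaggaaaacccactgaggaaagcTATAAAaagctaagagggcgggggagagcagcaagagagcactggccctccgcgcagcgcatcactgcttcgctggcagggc
Fmod chr1:134037004-134037303, + strand: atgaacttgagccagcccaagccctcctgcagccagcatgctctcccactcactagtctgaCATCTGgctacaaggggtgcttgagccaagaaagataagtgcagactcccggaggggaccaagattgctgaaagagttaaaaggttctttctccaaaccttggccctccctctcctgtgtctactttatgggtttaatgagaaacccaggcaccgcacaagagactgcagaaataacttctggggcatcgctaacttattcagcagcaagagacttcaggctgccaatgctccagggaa

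Among 32851 promoters of the same length, 13.6% held TATAAA and 17.2% held CATCTG on either strand. Dkk2 had TATAAA on its own strand, starting 32 bases before the start site. The Coch stretch held the same letters on the other strand, so that they read TTTATA in the run shown, and their first base lay at 3 bases past the start site. Fmod had CATCTG 189 bases before the start site. A match is a description of these letters and not of a site in use.

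The control library held 12108 barcodes with 71345558 UMIs (median 3939), and the metformin library 12092 barcodes with 92341365 UMIs (median 6540). Barcodes with at least 800 UMIs, at least 300 genes and at most 20% mitochondrial UMIs were kept. A fibroblast had at least 20 UMIs of Col1a1, Col1a2, Col3a1 and Dcn together, under 30 of Krt5 and Krt14 together and none of Ptprc. This gate held 4250 of 11554 kept control cells (36.8%) and 2248 of 11738 kept metformin cells (19.2%). Both libraries shared 41 barcodes, none of them a member. Members had a median of 3017 UMIs in control (range 1394 to 18558), against 2856 in the other gated fibroblasts, and of 3287.5 in metformin (range 1132 to 11810), against 4045.5. The median mitochondrial share of members was 1.46% and 2.45%, beside 1.26% and 1.99% in the others. The doublet caller Scrublet marked 1 control member and 2 metformin members, 1.54% and 3.23%, beside 3.25% and 5.31% of the others.

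Members made up 1.53% of gated fibroblasts in control (65 of 4250, exact interval 1.18% to 1.95%) and 2.76% in metformin (62 of 2248, 2.12% to 3.52%), a difference of 1.23 percentage points (0.498 to 2.06). Measured over all kept cells the shares were 0.563% (0.434% to 0.716%) and 0.528% (0.405% to 0.677%), and the difference of -0.0344 points had an interval from -0.227 to 0.157. The share of members was thus higher in metformin among fibroblasts, while the share among all kept cells did not differ beyond counting error. The number of fibroblasts per library differed more than the number of members. The large set A held 2052 cells in control and 679 in metformin, and set F held 64 and 341. When each fibroblast was thinned to 1500 UMIs, the rule found 73 of 3714 cells in control (1.97%) and 69 of 2064 in metformin (3.34%), with 536 and 184 shallower cells left out. The thinned difference was 1.38 points (0.524 to 2.33). With 1 library each, the agent, the animals and the dissociation cannot be told apart.

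Coch was the gene most members shared. All 65 control members had a Coch UMI, with a median of 6 and a range of 1 to 96, and 59 of 62 metformin members had one, with a median of 7.5 and a range of 0 to 181. Dkk2 was found in 57 control and 57 metformin members, Kera in 38 and 42, and Fmod in 27 and 30. The plot of Coch against Fmod UMIs per cell shows that the members were not uniform, since cells with several Fmod UMIs were also the cells with the most Coch UMIs. In control the most frequent combinations were Coch with Dkk2 (19 members), Coch with Dkk2 and Kera (19) and all 4 genes (12), and the others were Coch with Dkk2 and Fmod (7), Coch with Fmod and Kera (7) and Coch with Fmod (1). In metformin they were Coch with Dkk2 and Kera (19), all 4 genes (15), Coch with Dkk2 (10), Coch with Dkk2 and Fmod (10), Coch with Fmod and Kera (5) and Dkk2 with Kera (3).

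**Figure D1:**
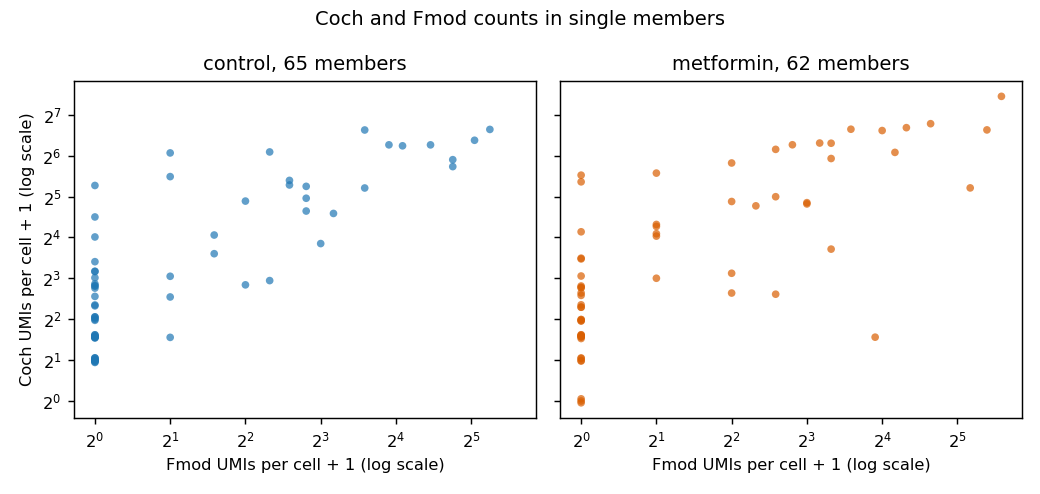
UMIs of Fmod (x axis) and Coch (y axis), each plus 1, in every member, 1 panel per library, on log axes, with points shifted slightly in the vertical direction so that equal values stay visible. Most members without a Fmod UMI lie at low Coch counts in both panels. The median Coch count was 37 in control and 33 in metformin members with a Fmod UMI, beside 2.5 and 3 in those without.

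Cells near the threshold of the rule differed by degree. Control members with 2, 3 and 4 of the genes numbered 20, 33 and 12, and their Coch levels were 1985, 4790 and 15666 CPM (the summed UMIs of a gene over 1000000 summed UMIs of the same cells). Metformin members with 2, 3 and 4 numbered 13, 34 and 15, with Coch at 805, 5919 and 13709 CPM. Fibroblasts with 2 or more of the genes that were not members, as another set was level or higher, outnumbered the members. There were 221 in control and 154 in metformin, with Coch at 988 and 1307 CPM, and they count among the other gated fibroblasts. Of these, the cells tied with another set numbered 106 in control and 63 in metformin, and their Coch level was 1274 and 2813 CPM. Cells with 1 of the genes and at most 1 of every other set had 204 CPM (78 cells, control) and 57.0 CPM (49 cells, metformin). The tied cells of metformin thus had a higher Coch level than the metformin members with 2 genes.

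Compared with the other gated fibroblasts, Coch stood at 6066 against 92.4 CPM in control and 7237 against 106 CPM in metformin. Fmod stood at 1215 against 5.81 CPM and at 1346 against 17.3 CPM. Kera, a proteoglycan of the same family, stood at 355 against 8.15 CPM and 440 against 22.0 CPM. Dkk2 was the least restricted of the rule genes, with 925 against 240 CPM in control and 675 against 88.8 CPM in metformin. Coch was detected in 7.41% and 9.24% of the other gated fibroblasts. Among cells gated as keratinocytes it was detected in 0.232% and 0.194% (median depth 8993 and 8453 UMIs), and among gated immune cells in 0.324% and 0.112% (2850 and 2702 UMIs). Thinned to 1500 UMIs, 89.1% of the control members and 80.0% of the metformin members had a Coch UMI, and 39.1% and 38.3% had a Fmod UMI.

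The working label of these cells also names Mfap4, which encodes a protein of the microfibrils, and Eln, which encodes elastin, at chr11:61485431-61488900 on the plus strand and chr5:134702593-134747323 on the minus strand. Neither set the members apart. Mfap4 was at 2000 CPM in control members and 1617 CPM in other fibroblasts, a ratio of 1.24 (1.12 to 1.36), and at 1834 and 909 CPM in metformin, a ratio of 2.02 (1.83 to 2.22). Mfap4 was detected in 75.4% and 74.2% of members and in 68.1% and 61.3% of the others. Eln was lower in control members, 467 against 785 CPM (ratio 0.595, 0.484 to 0.725), and higher in metformin members, 598 against 468 CPM (1.28, 1.07 to 1.51). Eln was detected in 58.5% and 59.7% of members and 62.0% and 59.8% of the others. The direction of Eln in metformin turned with a limit of 3000 genes per cell (log2 ratio -0.11) and as a mean over cells (-0.29), and that of Mfap4 in control turned in members with 3 or more rule genes (-0.11).

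The collagens of the gate were lower in members than in other fibroblasts in both libraries, with the lower ratios in control. Col1a1 stood at 4075 against 9489 CPM in control (ratio 0.429) and at 7404 against 9898 CPM in metformin (0.748). Col1a2 had ratios of 0.414 and 0.781. Col3a1 stood at 3028 against 6545 CPM in control (0.463) and 4480 against 5598 CPM in metformin (0.800). Dcn, which encodes decorin, had a ratio of 0.622 in control and 1.004 in metformin. Since these genes set the gate, their values describe where the members sit among the gated cells.

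Markers of other cell types gave few UMIs in members, apart from keratinocyte genes in a few cells and Crabp1. The fibroblast list was detected in full (8 of 8 markers) with a summed level of 19515 CPM in control members, beside 39734 CPM in the others, and 25661 beside 31074 CPM in metformin. Pecam1 and Rgs5, which mark endothelium and mural cells, were at 0 UMIs in members of both libraries, but stood at only 5.67 and 4.61 CPM in the other fibroblasts of control and 3.60 and 18.5 CPM in those of metformin. Sox10, Sox2 and Adipoq were also at 0 in members and at most at 2.24 CPM in the others, so their absence says little, Ptprc is at 0 by the gate, and Corin and Notum, also at 0, are rule genes of set G. Of 7 endothelial markers 0 were detected in control members and 1 in metformin members, and of 7 mural markers 2 and 1. Keratinocyte markers gave 1051 UMIs in control members, of which 96.3% lay in 3 cells and 858 in 1 cell, and 92 UMIs in metformin members. The dermal papilla list had 4 and 5 of its 8 markers detected and a summed level of 1818 CPM in control members, beside 196 CPM in the others, and of 2385 beside 478 CPM in metformin. Almost all of this was Crabp1, which encodes a retinoic acid binding protein and gave 357 of the 389 UMIs in control and 492 of the 558 in metformin.

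Over all genes, a gene was called higher or lower in members when the CPM ratio to the other gated fibroblasts was at least 1.5-fold in the same direction in both libraries. Of 11892 genes with at least 20 UMIs in members and others together in each library, 788 (6.63%) were higher and 1601 (13.5%) were lower. The balance of higher and lower genes depended on the filter. Among 1641 genes with at least 20 UMIs observed in members, or expected there from the level in the others, 114 (6.95%) were higher and 76 (4.63%) lower. Over all 11892 genes the log2 ratio had a median of 0.01 in control and -0.10 in metformin, and over the 1641 well-counted genes was 0.10 and 0.03.

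The gene with the highest ratio in both libraries outside the rule and gate was Cck, which encodes the peptide hormone cholecystokinin and lies at chr9:121489824-121495694 on the minus strand. It gave 66 UMIs in 12 of 65 control members, 308 CPM beside 1.98 CPM in other fibroblasts (ratio 155, 98.5 to 251). In metformin it gave 23 UMIs in 6 of 62 members, 98.3 beside 5.75 CPM (17.1, 10.2 to 27.7). A cell without a UMI at this depth may still express the gene.

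Gldn encodes gliomedin, a ligand that gathers sodium channels at the nodes of peripheral nerve fibres, and stood at 290 beside 58.0 CPM in control (4.99, 3.79 to 6.47) and 466 beside 44.7 CPM in metformin (10.4, 8.40 to 12.8). Over both libraries together it was the best counted of the leading genes, with 62 and 109 UMIs, while Cck had more in control (66). The latrophilin Adgrl3 had ratios of 20.8 and 9.91, the neuronal membrane glycoprotein Gpm6a 10.8 and 7.44, the synaptotagmin Syt13 5.83 and 5.88 and the neuron navigator Nav3 4.84 and 13.8. Each of these 4 genes had 12 to 32 UMIs in the members of a library, so their intervals are wide.

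The remaining leading genes have various roles. Meox2, a homeobox transcription factor, had ratios of 7.64 (4.93 to 11.4) and 11.8. Slc5a3, a transporter of myo-inositol, had 6.96 (4.68 to 10.04) and 9.93. Hs3st6, a heparan sulfate sulfotransferase, had 10.5 (6.47 to 16.4) and 11.0. Hs3st6 was also detected in 50.6% of gated keratinocytes in control and 43.5% in metformin, beside 26.2% and 24.2% of members. Thinned to 1500 UMIs, it was detected in 12.5% and 10.3% of the keratinocytes and in 15.6% and 13.3% of members. Its ratios thus set members apart from other gated fibroblasts only. The matrix genes Emid1, Srpx2 and Megf6 had ratios of 5.49, 5.17 and 6.02 in control and 8.89, 4.89 and 4.77 in metformin. Cpne5, Abca8b and Kif26b, which encode a copine, an ABC transporter and a kinesin, had 21.1, 14.6 and 16.7 in control and 13.9, 12.2 and 8.69 in metformin. All 15 ratios were above 4 in both libraries by the way the genes were ranked.

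**Figure D2:**
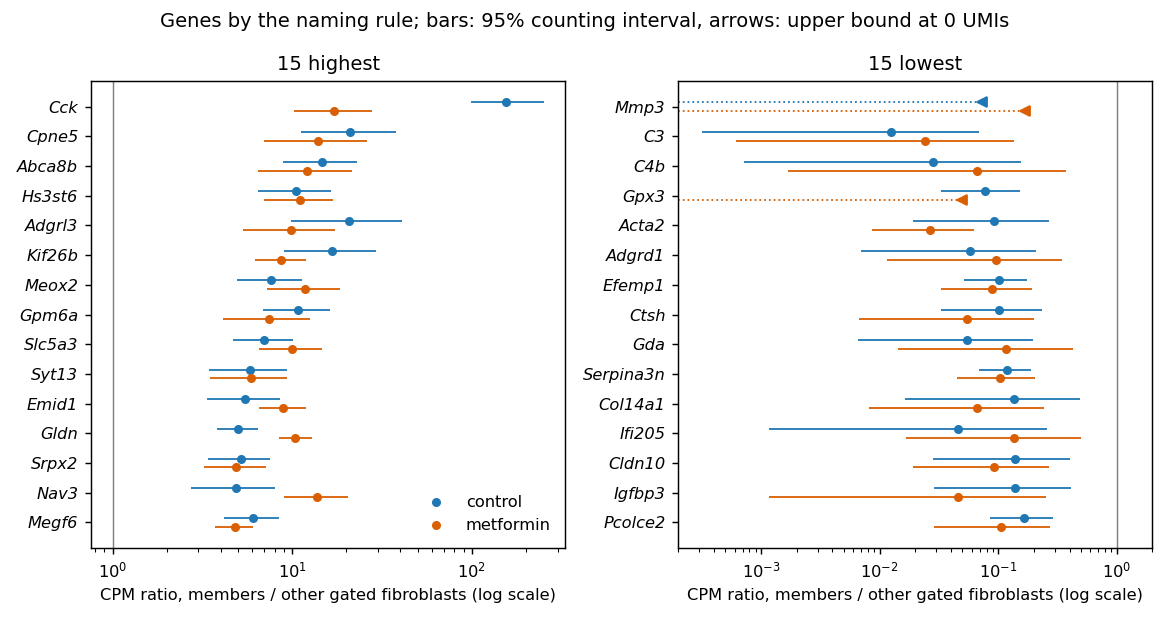
CPM ratio of members to other gated fibroblasts (x axis, log scale) for 15 leading and 15 trailing genes of both libraries, with 95% counting intervals as bars, and arrows where members had 0 UMIs and only an upper bound could be drawn. Cck stands highest in both libraries (155 and 17.1), and Mmp3 had 0 UMIs in members of both.

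At the other end, Mmp3, which encodes the matrix protease stromelysin 1, had 0 UMIs in members of both libraries, beside 235 and 93.6 CPM in the other fibroblasts. With a floor of 3 UMIs over the members of a library it was at least 16.8-fold lower in control and at least 7.30-fold lower in metformin. The complement gene C3 gave 1 UMI in each library, beside 375 and 176 CPM in the others. Gpx3, the extracellular glutathione peroxidase, had 8 UMIs in 1 control member and 0 in metformin members, beside 485 and 319 CPM. Efemp1, a fibulin of the extracellular matrix, stood at 56.1 beside 557 CPM (ratio 0.101, 0.0520 to 0.176) and at 25.6 beside 288 CPM (0.0890). The serine protease inhibitor Serpina3n stood at 79.4 beside 672 CPM (0.118) and 34.2 beside 331 CPM (0.103). Acta2, the actin of smooth muscle, had ratios of 0.0923 and 0.0268, from 3 and 5 UMIs in members. Its level in the other fibroblasts differed between the libraries, 152 CPM in control and 797 CPM in metformin. Of the other mural markers Myh11 was at 0 UMIs in members of both libraries, beside 17.9 and 26.0 CPM in the other gated fibroblasts. The remaining lowest genes were C4b, Adgrd1, Ctsh, Gda, Col14a1, Ifi205, Cldn10, Igfbp3 and Pcolce2.

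Small leucine-rich proteoglycans were mostly higher in members. Leaving out the rule genes Fmod and Kera, 6 of 9 tested members of that list were higher (Aspn, Chadl, Ecm2, Ogn, Omd and Prelp) and 0 were lower, beside 6.63% and 13.5% of all genes. Chadl rested on 5 and 3 UMIs. The median log2 ratio was 1.34 in control and 1.42 in metformin, and for the 6 well-counted genes 1.48 and 1.87. Of these 6 genes 4 were higher, beside 6.95% of all well-counted genes. Osteoglycin (Ogn) stood at 738 beside 211 CPM in control (3.497, 2.96 to 4.10) and at 846 beside 186 CPM in metformin (4.54, 3.91 to 5.25). Asporin (Aspn) stood at 1453 beside 335 CPM (4.34, 3.86 to 4.87) and 1120 beside 255 CPM (4.40, 3.86 to 4.99). Prelp had ratios of 3.499 and 3.42, and Ecm2 of 2.23 and 3.91. Lumican (Lum), the member of the family best known from cornea and skin, was not among them, with 1238 beside 2725 CPM in control (0.454) and 1483 beside 1500 CPM in metformin (0.989), and biglycan (Bgn) had 0.737 and 1.03.

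Of 24 matrix glycoproteins tested 10 were lower (13.5% of all genes were) and 1 was higher (6.63%), with median log2 ratios of -0.87 and -0.64. Of the 14 well-counted ones 7 were lower, beside 4.63% of all well-counted genes. Fibronectin (Fn1) stood at 103 beside 828 CPM in control (0.124, 0.0778 to 0.188) and 120 beside 523 CPM in metformin (0.229, 0.152 to 0.331). Tenascin X (Tnxb) had ratios of 0.231 and 0.314, Tgfbi 0.169 and 0.380, and the thrombospondin Thbs1 0.302 and 0.456. The exception was Sparcl1, a secreted protein of the SPARC family, with 2.58 (1.87 to 3.47) and 2.14 (1.39 to 3.16). Periostin (Postn) had 2.15 and 1.48 and missed the call in metformin.

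Elastic fibre genes were split. For this list and those that follow here, the background was 6.63% of all genes higher and 13.5% lower. Of 19 tested, Fbln5 (1.74 and 2.44) and Ltbp4 (1.57 and 2.43), which both take part in elastic fibre assembly, were higher, and Efemp1, Emilin2, Fbln1, Fbn1 and Fbn2 were lower. Fbln1 had ratios of 0.193 and 0.333, and Fbn1, which encodes fibrillin 1, had 0.417 and 0.604. The medians of the list were -0.32 in control and 0.29 in metformin, on either side of the median of all genes. Of 20 genes of fibrillar collagens and collagen processing 0 were higher and 3 lower, near the shares of all genes, with medians of -0.34 and 0.04. Of 18 other collagens 4 were higher, among them Col18a1 (1.57 and 2.41) and Col7a1 (1.60 and 2.42), and 2 were lower. Among 21 matrix proteases and inhibitors 8 were lower, Mmp3 and Timp1 (0.256 and 0.204) among them, and 2 were higher, Adamts9 (21.3, 12.6 to 34.9, and 3.93, 2.21 to 6.52, from 22 and 16 UMIs) and Mmp16 (3.09 and 5.33, from 16 and 22 UMIs). Of the 12 well-counted genes of that list 3 were lower and 0 higher, beside 4.63% and 6.95% of all well-counted genes.

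Nearly all of the complement and chemokine genes that passed the call were lower. Of 13 complement genes 6 were lower and 1 was higher, with medians of -1.14 and -0.85, beside 13.5% and 6.63% of all genes. Of the 6 well-counted ones 2 were lower and 1 was higher, with medians of -0.58 and -0.51, beside 4.63% and 6.95% of all well-counted genes. Masp1, a protease of the lectin pathway, was the higher one with 1.68 and 3.42. Of 20 chemokines and cytokines 10 were lower and 1 higher, with medians of -1.85 and -0.96, but only 5 were well counted, of which 2 were lower. These were Cxcl12 (0.392 and 0.546) and Ccl2 (0.216 and 0.584). Genes of fascia and adventitia gave 9 lower of 14 and 0 higher, with medians of -1.49 and -0.89, and 3 of the 6 well-counted ones were lower, with medians of -0.69 and -0.24. Cd34 in that list did not pass, with 0.754 and 1.31. Of 14 genes of insulin-like growth factor signalling 4 were lower, with Igfbp6 at 0.302 and 0.300, and 0 were higher.

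Wnt genes other than Dkk2 showed little of a common direction, where 6.63% of all genes were higher and 13.5% lower. Of 13 Wnt inhibitors and Dkk receptors 0 were higher and 3 lower (Sfrp1, Sfrp2 and Sfrp5), all on at most 3 UMIs in the members of a library. Wif1, an inhibitor that binds Wnt proteins, had ratios of 3.13 and 1.33. Of 12 Wnt ligands 1 was higher and 3 lower, and of 11 Wnt response genes 3 were higher and 3 lower, none of them well counted. Of 9 tendon and cartilage genes 1 was higher and 3 were lower (Prg4, Sox9 and Thbs4), with medians of -0.04 and 0.34, and of the 3 well-counted ones Mkx alone was called. Mkx, a homeobox factor of tendon, had 2.32 (1.44 to 3.55) and 6.17 (3.73 to 9.72), whereas Scx gave 1 and 5 UMIs. Of 13 genes of the papillary dermis 2 were higher and 4 lower, with medians of -0.98 and -0.51, and Trps1, a GATA-type transcriptional repressor, had 3.87 (3.10 to 4.78) and 3.95 (3.26 to 4.74). Of 36 nuclear genes of respiratory complex I 0 were higher and 0 lower.

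Of 15 genes of TGF-beta signalling 3 were higher, the target gene Ctgf with 3.04 and 2.13, the transcriptional co-repressor Skil with 1.62 and 1.57 and the ligand Tgfb3 with 1.90 and 3.60, and Acta2 and Tgfbr2 were lower. Of 14 genes of FGF signalling the feedback inhibitors Spry1 (1.53 and 1.84) and Spry4 were higher and Fgf18 was lower, and of 21 genes of BMP signalling 0 were higher and 6 lower, none of the latter well counted. The hedgehog list gave 1 higher and 2 lower of 11, the immediate early list 1 higher (Ier2) and 0 lower of 22, and the heat shock list 0 of 12 in either direction. Of 11 genes of the reticular dermis and preadipocytes 6 were lower and 0 higher, with medians of -0.86 and -1.62. Of the 4 well-counted genes of that list 2 were lower. Among all genes 13.5% were lower and 6.63% higher. Of 7 hyaluronan genes only the synthase Has1 was called, with 131 beside 381 CPM in control (0.343) and 42.7 beside 96.2 CPM in metformin (0.444), and the medians of the list were -0.79 and -0.25. The cell division list gave 11 lower of 17, but 0 of its genes were well counted, and its median in metformin was -1.18.

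**Figure D3:**
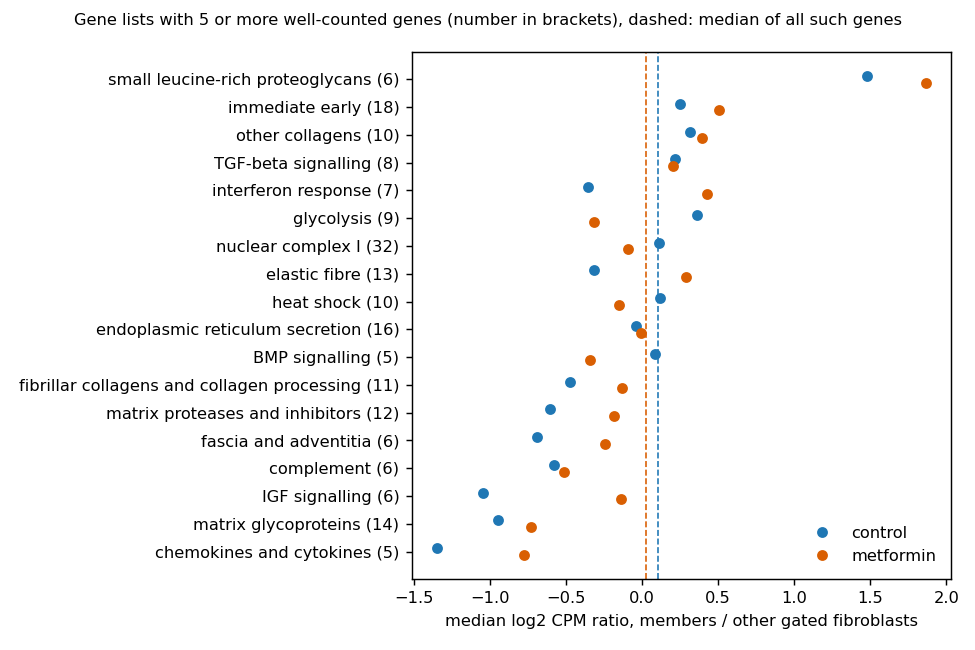
Median log2 CPM ratio of members to other gated fibroblasts (x axis) for each gene list with 5 or more well-counted genes (y axis, number of genes in brackets), 1 point per library, with dashed lines at the median of all well-counted genes. The small leucine-rich proteoglycans lie farthest to the right (1.48 and 1.87), and chemokines, matrix glycoproteins and complement lie to the left in both libraries.

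Members with and without a Fmod UMI differed in many genes. This split was chosen after the values were seen, and since Fmod is a rule gene, members without it were bound to have other rule genes. Control members with a Fmod UMI (27) and without (38) had median depths of 3040 and 3008 UMIs, and metformin members with Fmod (30) were shallower than those without (32), 2804.5 against 3893.5 UMIs. Coch stood at 11268 CPM with Fmod and 1613 CPM without in control (6.99, 5.98 to 8.20), and at 13786 and 1571 CPM in metformin (8.78, 7.56 to 10.2). The level without Fmod was above the 92.4 and 106 CPM of other fibroblasts, but the rule in part set this. A member without Fmod needs 2 of Coch, Dkk2 and Kera, and the median Coch count of these members was only 2.5 and 3 UMIs. All Cck UMIs, 66 in control and 23 in metformin, lay in members with Fmod.

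Members with Fmod also held most of the UMIs of several other genes, of which only some are among the leading genes above. The leading gene Gldn gave 53 UMIs with Fmod and 9 without in control, and 75 and 34 in metformin. Megf6, also a leading gene, was closer to even, with 22 and 14 UMIs in control (1.84, 0.898 to 3.88) and 48 and 25 in metformin. Crabp1 stood at 3506 against 95.4 CPM in control and 3926 against 526 CPM in metformin. Tnmd, which encodes the tendon protein tenomodulin, stood at 1378 against 95.4 CPM (14.4, 7.82 to 29.6) and 2064 against 255 CPM (8.09, 5.57 to 12.1). Crabp1 and Tnmd are rule genes of other sets, and a member could hold fewer of those sets than of its own. Aspn stood at 2675 against 408 CPM and 1797 against 534 CPM, and Ogn at 1307 against 252 CPM and 1456 against 319 CPM. Members without Fmod had an Ogn level of 252 and 319 CPM, beside 211 and 186 CPM in other fibroblasts. Meox2 (9.35 and 12.7), Slc5a3 (11.3 and 16.8), Hs3st6 (12.3 and 6.65), Mkx (7.40 and 4.91) and Igfbp4 (18.4 and 5.09) had the same direction. Fabp5 had ratios of 9.20 and 10.3, but its UMIs with Fmod came from 4 control and 7 metformin members.

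Other matrix genes were higher in the members without Fmod. Col3a1 stood at 922 CPM with Fmod and 4831 CPM without in control (0.191, 0.151 to 0.239), and at 1373 and 7168 CPM in metformin (0.192, 0.160 to 0.228). It was detected in 11 of 27 and 38 of 38 control members. Col1a1 differed little between the same cells, with ratios of 1.25 and 0.954, and so did Dcn with 0.896 and 1.08. Eln stood at 132 against 755 CPM in control (0.175, 0.0894 to 0.314) and 249 against 901 CPM in metformin (0.276, 0.174 to 0.423). Mfap4 stood at 932 against 2914 CPM (0.320, 0.251 to 0.404) and 1078 against 2488 CPM (0.433, 0.347 to 0.538). Without Fmod, Mfap4 was above the 1617 and 909 CPM of other fibroblasts in both libraries, and Eln was above theirs in metformin (468 CPM) but not in control (785 CPM).

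Cilp, which encodes a cartilage intermediate layer protein, stood at 172 against 1414 CPM in control and 101 against 749 CPM in metformin. The transcription factor Ebf1 had ratios of 0.151 and 0.0296, the protease Adamts5 0.102 and 0.0608, and the opioid precursor Penk gave 0 UMIs with Fmod and 32 and 11 without. Mgp, which encodes matrix Gla protein, had 0 UMIs with Fmod and 80 and 33 without, but these came from 6 and 3 cells. Dkk2 was lower with Fmod in control (0.438, 0.314 to 0.603), and the ratio of 0.767 in metformin had an interval from 0.548 to 1.07. Kera had ratios of 1.70 and 1.23. Both are rule genes, so the choice of cells in part set these ratios, and no conclusion is drawn from them. Without Fmod every member carried a Dkk2 UMI (38 of 38 and 32 of 32), beside 19 of 27 and 25 of 30 with Fmod.

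**Figure D4:**
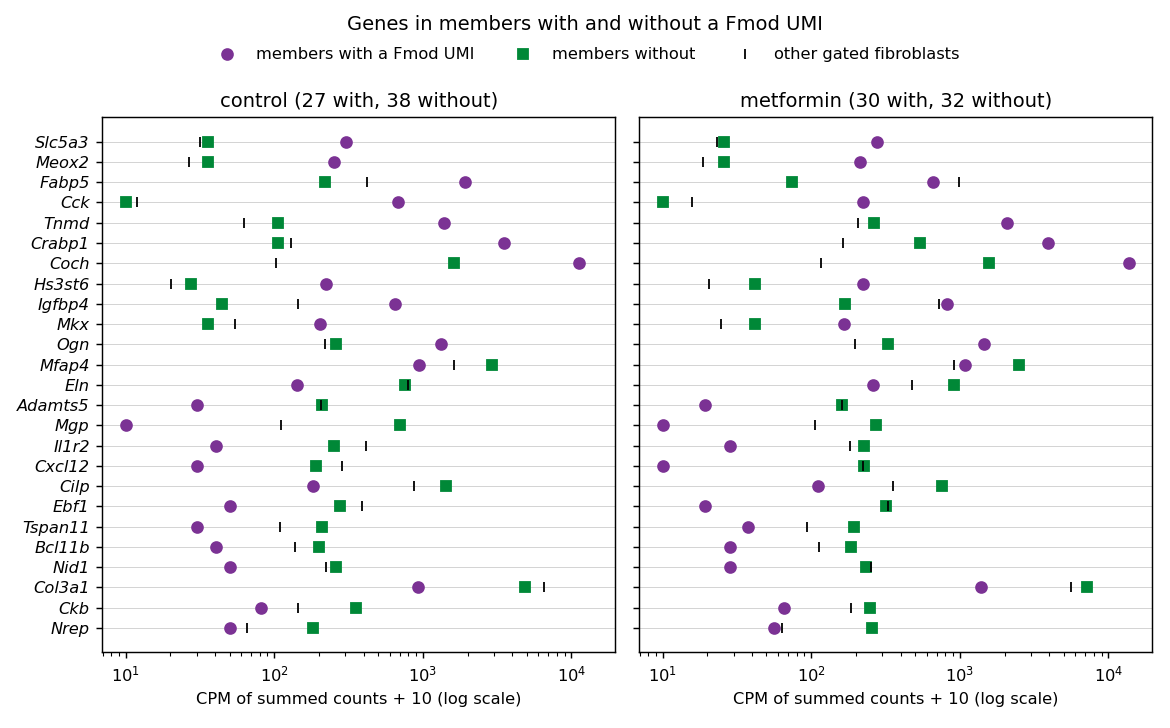
CPM of summed counts plus 10 (x axis, log scale) of the genes with the largest ratios between members with and without a Fmod UMI, with Mfap4 and Eln added, 1 panel per library, in members with Fmod (circles), members without (squares) and other gated fibroblasts (ticks). Coch in members without Fmod (1613 and 1571 CPM) lies between the other groups, which the rule in part sets. Col3a1, Eln and Mfap4 are lower in members with Fmod in both libraries.

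Of the 6 other sets, A was the most like the members across genes. Pearson's r of log2(CPM + 10) between the summed counts of members and set A was 0.867 over 3529 genes in control and 0.862 over 3391 genes in metformin, followed by set B with 0.831 and 0.806, set D with 0.812 and 0.781 and set F with 0.772 and 0.789. Genes are not independent replicates and sets E and G had few cells, so this order is a description. Beside set A, the highest ratios were those of Meox2 (23.6 and 12.1), Gldn (9.10 and 11.4), Megf6 (9.23 and 8.90), Syt13 (7.77 and 7.86) and Emid1 (7.14 and 8.36). Mmp3 and Plat had 0 UMIs in members and were among the lowest with C3, C4b and Adgrd1. Mfap4 had ratios to set A of 1.03 and 1.13 and Eln of 0.691 and 0.903, so neither separated the members from that set.

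Beside set B, the water channel Aqp1 had the highest ratio in control, with 262 against 9.08 CPM in control (28.8, 15.6 to 57.4), and stood at 197 against 6.39 CPM in metformin (30.7, 11.2 to 118). Megf6 (15.05 and 39.0) and Gldn (13.0 and 36.4) were above it in metformin, and Tagln (9.45 and 9.45) and Igfbp4 (9.74 and 9.31) were lower than these in both libraries. Among the lowest were Mmp3 and Vit, both at 0 UMIs in members, with C3 and Gda. Thus Gldn and Megf6 were higher in members than in either similar set. Eln had ratios to set B of 0.518 and 0.564, and Mfap4 of 1.36 and 1.37.

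Between the agents, members of the metformin library were set beside members of the control library gene by gene, with the same ratio in the other gated fibroblasts. Of 3457 genes with at least 20 UMIs in both libraries together, 447 (12.9%) were at least 1.5-fold higher in metformin members and 606 (17.5%) lower. The median log2 ratio was -0.02 in members and -0.03 in the other fibroblasts. Among genes with at least 100 UMIs in both libraries together, 8 of the 10 lowest ratios belonged to the keratinocyte-expressed genes Krt1, Calm4, Krtdap, Sbsn, Krt10, Dmkn, Lgals7 and Perp, and these rested on single control cells: 317 of 373 Krt1 UMIs and 408 of 435 Calm4 UMIs came from 1 cell. Members with 20 or more keratinocyte UMIs, 2 in control and 1 in metformin, were therefore left out of the values that follow. The same limit was applied to the other gated fibroblasts, where it left out 127 control and 195 metformin cells. Values given with all members keep all cells of both groups.

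Igfbp5, which encodes a binding protein of insulin-like growth factors, had the highest ratio among genes with at least 100 UMIs in both libraries together. It gave 116 UMIs in control members and 325 in metformin members, 617 and 1458 CPM, a ratio of 2.36 (1.91 to 2.95). The ratio in other fibroblasts under the same keratinocyte limit was 0.681 (0.664 to 0.698). With all cells the ratios were 2.56 in members and 0.589 in the others. Igfbp5 was thus lower in control members than in other control fibroblasts (542 against 1280 CPM with all members) and higher in metformin members than in other metformin fibroblasts (1389 against 754 CPM). Igf1 had a ratio of 2.53 (1.60 to 4.13) with all members, from 26 and 72 UMIs, beside 0.920 in other fibroblasts. Hmgn1 (2.09), Atpif1 (1.87), H2afv (1.80) and Rbm3 (1.72) were higher in members and also in other fibroblasts (1.55, 1.69, 1.66 and 1.65). Ndufa4l2, a mitochondrial protein, had 1.84 (1.24 to 2.78) in members and 0.892 in the others.

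Errfi1, a feedback inhibitor of the epidermal growth factor receptor, had the lowest ratio among the same genes, with 160 UMIs in control and 31 in metformin members, 851 and 139 CPM (0.163, 0.107 to 0.241), with 0.237 in other fibroblasts. Ctgf and Cyr61, secreted proteins induced by mechanical and growth factor signals, had 0.212 and 0.411 in members and 0.375 and 0.523 in the others. The stress-induced transcription factor genes Atf3 (0.322), Nr4a1 (0.352) and Cebpd (0.380) were also lower in the other fibroblasts (0.646, 0.312 and 0.382). The matrix gene Mgp (0.348, with 1.03 in the others) and the guidance ligand Slit2 (0.385, 0.273 to 0.538, with 0.877 in the others) were lower in members, where the Mgp UMIs came from 6 and 3 cells. Gja1 and Mcl1 had 0.376 and 0.393 in members and 0.636 and 0.560 in the others.

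As lists, with all members, 9 of 21 immediate early genes were lower and 0 higher, beside 17.5% and 12.9% of all genes. Their median log2 ratio was -0.53 in members and -0.76 in the others. The other lists of this paragraph have the same background shares. Egr1 stood at 2131 CPM in control members beside 1150 CPM in metformin members (0.540, 0.462 to 0.629), with 0.485 in the others. Fos had a ratio of 0.755 (0.663 to 0.859), with 0.634 in the others. Immediate early genes are known to be induced by tissue dissociation, and the part of that step in the difference was not tested. Of 9 glycolysis genes 6 were lower, with medians of -0.71 in members and -0.06 in the others, and -0.48 in members without the keratinocyte-marker cells. Of 9 interferon response genes 6 were lower, with medians of -0.82 and -1.05. Of 34 nuclear complex I genes, whose enzyme metformin is known to inhibit at high doses, 3 were higher and 1 lower, with medians of 0.34 in members and 0.44 in the others.

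**Figure D5:**
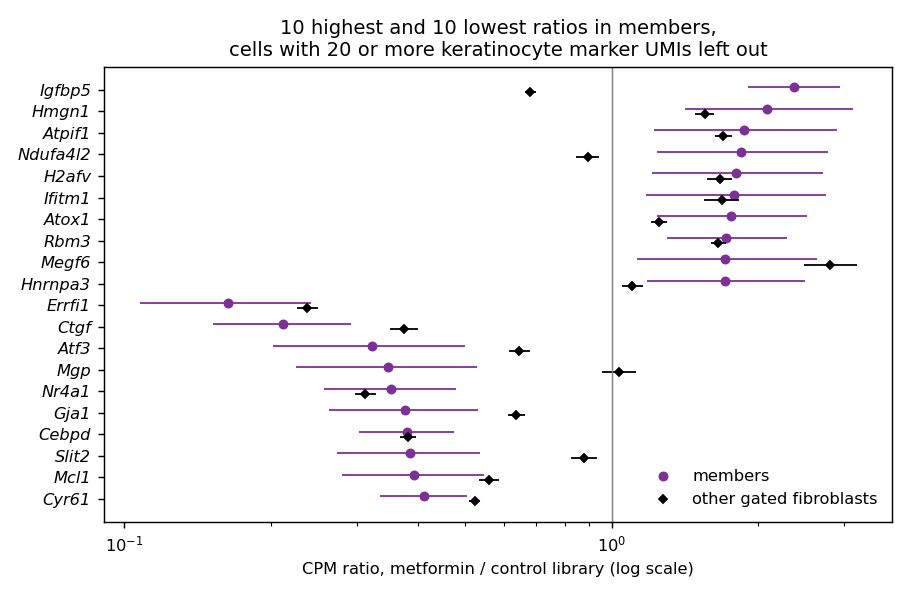
CPM ratio of metformin to control (x axis, log scale) in members without the 3 keratinocyte-marker cells, with 95% counting intervals, for the 10 highest and the 10 lowest genes, beside the same ratio in other gated fibroblasts. Igfbp5 is at 2.36 in members and 0.681 in the others, whereas Errfi1 is low in both (0.163 and 0.237).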

How the data were processed

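Droplet single-cell RNA libraries of skin were deposited as count matrices of UMIs per gene and barcode, made by the authors with Cell Ranger 4.0.0 per the matrix headers on build GRCm38; the exact commands and filters were not given in the sources used. No barcode in the matrices had under 500 UMIs. Gene order and barcodes came from the deposited feature and barcode lists, with 31053 genes.

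The members, the sets and the 29 gene lists and 12 marker lists were chosen with earlier results of these data known. Counts were summed per library over members and over the other gated fibroblasts and expressed as CPM of all UMIs. Ratios have exact conditional binomial intervals, shares Clopper-Pearson and differences of shares Newcombe intervals at 95%. Reads of a few cells are not independent, so a sum can rest on few cells. A fold of 1.5 in both libraries made a call. No test was run, as each agent has 1 library. Named genes were the 15 highest and 15 lowest in both libraries (at least 50 CPM on the higher side and 50 UMIs), the 10 highest and 10 lowest between agents (at least 100 UMIs), up to 4 of each list and 5 in each direction for the 2 most similar sets (1 of these is not reported here), without mitochondrial, ribosomal, haemoglobin, rule and gate genes. Genes of the split by Fmod and the values without keratinocyte-marker cells were chosen after seeing the data, as were single genes added to the lists (Lum, Bgn, Postn, Wif1, Scx, Cd34, Egr1, Fos, Igf1).

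Alternatives changed the mitochondrial limit (8%), the gene limit (3000), the gate (50 UMIs), the number of rule genes (3), the count minimum (5 and 50), the scale, the averaging, the comparison cells, doublets (Scrublet in scanpy 1.11.5, otherwise not removed), and, added after seeing the data, keratinocyte-marker cells, members with Fmod only and the well-counted filter. Scripts used Python 3.11.15, numpy 2.4.6, scipy 1.17.1 and pandas 2.3.3 and were tested on simulated data. Sequences are from RefSeq tables.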

Additional observations from a re-analysis of the deposited data

Results flagged for a closer look

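Genes named in the report stood on opposite sides of the other gated fibroblasts in the control and metformin libraries. The difference between the libraries was not tested, since each agent has 1 library, and values are log2 ratios of members to others. The make-up of the gated fibroblasts also differed: set A was 48.3% of them in control and 30.2% in metformin, and set F 1.51% and 15.2%. The part of this in the opposite signs was not tested. Eln was at -0.75 in control and 0.35 in metformin. Beside set A alone its CPM ratios were 0.691 and 0.903, and beside set B 0.518 and 0.564, lower in members in both libraries. Igfbp5 was at -1.24 and 0.88, and Igf1 at -0.86 and 0.61, so these genes of insulin-like growth factor signalling were below the other fibroblasts in control and above them in metformin. The keratinocyte genes went the other way: Krt1 was at 1.44 in control and -4.18 in metformin, Calm4 at 1.58 and -2.98, Krtdap at 0.39 and -3.74, Krt10 at 0.77 and -2.85, Dmkn at 0.61 and -2.76, Lgals7 at 0.62 and -2.09 and Perp at 0.54 and -1.19. Of the keratinocyte marker UMIs of control members, 96.3% lay in 3 cells.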

How the results depend on the processing

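No paired analysis was possible because each agent has 1 library. The difference in the share of members among gated fibroblasts kept its direction in every alternative run (0.699 to 1.55 points). The share among all kept cells, with a difference of -0.0344 points (-0.227 to 0.157), was not run under the alternatives. Of the shares 19 of 24, of the counts of called genes 31 of 42, of the list medians 757 of 796 and of the single gene ratios 1730 of 1973 stayed within the limits set for them; 28 gene ratios reversed. A mitochondrial limit of 8% and division by the median ratio moved none of these results past those limits. The share of members in control became 1.06% with 3 or more rule genes, 1.17% with a gate of 50, 0.635% with Fmod only and 1.97% after thinning, and in metformin 1.33% with Fmod only. Lower genes in members numbered 2480 of 11892 (20.9%) with Fmod only, 2966 of 13992 (21.2%) with a minimum of 5 UMIs and 1045 of 10285 (10.2%) with 50. When well counted, 76 of 1641 (4.63%) were lower and 114 (6.95%) higher. Between agents, higher and lower genes numbered 242 (15.3%) and 269 (17.0%) of 1582 with Fmod only. They numbered 1781 (21.7%) and 2051 (25.0%) of 8220 at a minimum of 5, and 113 (8.45%) and 185 (13.8%) of 1338 at 50.

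With Fmod-only members, list medians (log2, members beside others) became: proteoglycans 2.35 in control and 2.31 in metformin, fascia -3.18 and -1.59, hyaluronan -2.91 and reticular dermis -1.75 in control, and matrix glycoproteins -1.47 and chemokines -2.17 in metformin. Medians that turned below 0 with Fmod only were, in metformin, elastic fibre -0.32, other collagens -0.79, tendon and cartilage -1.78 and Wnt response -0.47, in control FGF signalling -0.72, and Wnt inhibitors -0.43 in control and -0.68 in metformin. Without doublets tendon and cartilage was -0.81 in metformin. Also in metformin, Wnt response was -0.36 with 3 or more rule genes, Wnt inhibitors -1.14 at a minimum of 5 UMIs and Wnt ligands 0.31 at a minimum of 50. BMP signalling between agents turned to 0.24 with Fmod only, and papillary dermis in metformin to 0.49 when well counted. With 3 or more rule genes hyaluronan was -1.77 in control and reticular dermis -3.17 in metformin, the latter -3.82 at a minimum of 5. When well counted, reticular dermis was -0.33 in metformin, fascia -0.69 and -0.24, and papillary dermis -0.036 in control. Cell division in metformin was -0.29 with 300 to 3000 genes, -2.51 without doublets and -0.43 beside the 6 other sets.

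Reversed log2 ratios of members to others with Fmod only were, in control, Mfap4 -0.80, Col4a2 -0.0046, Col4a1 -0.50, Gas1 -0.78, Spry1 -0.39, Egr1 -0.18 and Ndufa3 0.0047, and in metformin Eln -0.93, Col4a1 -0.19, Wif1 -0.68, Spry1 -0.74, Igf1 -0.57, Ntn1 -0.20, Cilp -1.78 and Ifi27l2a -0.39. In metformin Eln and Cilp were -0.11 and -0.073 with 300 to 3000 genes and -0.29 and -0.18 as a mean over cells, and Id3 was -0.036 without doublets. With 3 or more rule genes Mfap4 was -0.11 and Mgp -1.09 in control, and Mgp -3.17 in metformin. Between agents, Krt1 1.34, Calm4 0.98, Lgals7 1.59 and Perp 1.92 reversed without keratinocyte-marker cells, and Ifitm1 was -0.28 with Fmod only. Some of these settings also left fewer cells or genes, and the cause of a move was not tested. With 127 members, a gene under about 20 UMIs in them is poorly resolved.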
